A study of Homo sapiens with 16 samples.

Results

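The mitochondrial ribosomal protein genes analysed here are the nuclear genes that encode the proteins of the mitochondrial ribosome and carry an MRPL or MRPS symbol. They were taken from the table of scaled expression values as protein-coding genes whose symbol begins with MRPL or MRPS followed by a number. This gave 76 genes of 22916 in that table, 48 MRPL genes named for the large subunit and 28 MRPS genes named for the small subunit. All 76 passed the filter on low counts and were tested, among 17104 tested genes in all. RNA sequencing was done in HCT116, an established human colorectal carcinoma cell line. Control cells (called WT here) were compared with cells gene-edited to carry a truncated Rpn10, the proteasome subunit encoded by PSMD4, that lacks its ubiquitin interacting motif. Both were reverse-transfected with 50 nM of either a scrambled siRNA or a mix of 4 siRNAs against OTUD5, a deubiquitinase, and all groups therefore received Lipofectamine RNAiMAX and an siRNA. RNA was taken after 48 hours, with 4 libraries in each of the 4 groups: WT scramble, WT knockdown, truncation scramble and truncation knockdown. The labels call the libraries of a group biological replicates. They do not say how many edited clones were used or whether the replicates were separate cultures, so p-values measure only the spread between these libraries.

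Mitochondria keep a small genome of their own, and the few proteins it encodes, all of them subunits of the respiratory chain and ATP synthase, are made by a dedicated ribosome inside the organelle. Its ribosomal RNAs come from the mitochondrial genome, whereas its proteins are encoded in the nucleus, made in the cytosol and imported. The small subunit reads the messenger RNA, and the large subunit holds the peptidyl transferase centre and the tunnel through which the new chain leaves. Some of the proteins have bacterial counterparts and others are found only in mitochondria. By structure MRPS30 and MRPS18A sit in the large subunit despite their symbols, which gives 50 large and 26 small subunit proteins, of which 30 and 16 are conserved from bacteria and 20 and 10 are specific to mitochondria.

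Library totals ran from 28777244 to 29645663 counts. The OTUD5 message stood at 88.5 ± 3.18 CPM (TMM-scaled CPM, that is, the share of a library's counts after scaling by the trimmed mean of M values; mean ± SD, n = 4) in WT scramble, 20 ± 2.05 for WT knockdown, 94.9 ± 2.27 for truncation scramble and 20.7 ± 1.49 for truncation knockdown libraries. For the 4 truncation knockdown libraries 1 label field reads scramble while the library name and the treatment field read siOTUD5. They were grouped by the latter, and OTUD5 lay between 19.3 and 22.3 CPM in them. PSMD4 fell with truncation in scramble cells (log2 fold change -0.24 ± 0.06, SE, adjusted p = 0.00201), and stood at 202 ± 5.37 CPM in truncation scramble and 321 ± 16.7 in truncation knockdown libraries. A count per gene does not check the edited end of its message. Within the WT knockdown group, replicate 2 stood apart in its counts (chi-square divided by degrees of freedom, 16.5 to 20.8 with its own group, where all pairs without it had 2.75 to 15.1). Replicate 3 of that group detected 32264 genes, and every other library detected between 25626 and 27765. Some counts of called members and some named calls are therefore also given without these 2 libraries. Shared calls, correlations, subunit sums, counts by role or symbol and counts in the related lists are given only with them. Summed epithelial markers ranged from 4096 to 5622 CPM, with EPCAM (group means 112 to 220 CPM) and keratins present and VIL1 near 0 (0.00865 to 0.157 CPM). KRT8 gave the largest part, so the sum hides opposite directions. From WT scramble to truncation knockdown the means of KRT8 (2164 to 3085 CPM) and KRT18 (486 to 688) rose. Those of EPCAM (220 to 112), KRT19 (1287 to 934), CDH1 (51.8 to 28.4), CLDN4 (211 to 182) and CLDN7 (76.5 to 23.9) fell. CDX2 stood at 21.5 and 21.7 CPM. Summed leukocyte markers ranged from 0.171 to 14.6 CPM, the highest in a WT scramble library. Fibroblast markers, nearly all of it COL1A1, stood at 47 to 57.2 CPM in WT scramble and 34.3 to 47.9 in the other groups, with DCN near 0 (group means 0.0342 to 0.0921 CPM), and endothelial markers from 0.665 to 2.89 CPM. The part of these markers in the results was not tested. In bulk RNA, a smaller share of cells that express a gene and less of its RNA in each cell cannot be told apart.

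The promoters of the genes give the first feature that the choice of members did not use. Stretches before the RefSeq transcript start (GRCh38.p14, 5' to 3' on the gene's own strand) are shown for 3 genes: the pair whose message fell most with OTUD5 knockdown, and the gene with the highest mean rise over the 2 truncation comparisons, among genes with no overlapping neighbour and a start on which RefSeq and GENCODE lie close together. They were chosen after their values were seen. MRPS34 (chr16:1773135-1773214, minus strand) is shown over the 80 bases before its RefSeq start, a stretch kept short because EME2 begins on the other strand within it. The GENCODE starts of MRPS34 and EME2, 52 bases apart, both lie in this stretch. MRPL3 (chr3:131502972-131503221, minus strand) and MRPS23 (chr17:57850045-57850294, minus strand) are shown over 250 bases. Capitals mark CCGGAAG or its reverse complement, the core bound by ETS family factors such as GABP, and in MRPS23 also, as the first run of capitals, the antioxidant response element core TGACNNNGC read on the other strand.
MRPS34: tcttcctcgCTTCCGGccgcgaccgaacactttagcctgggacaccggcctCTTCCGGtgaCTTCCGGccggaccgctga
MRPL3: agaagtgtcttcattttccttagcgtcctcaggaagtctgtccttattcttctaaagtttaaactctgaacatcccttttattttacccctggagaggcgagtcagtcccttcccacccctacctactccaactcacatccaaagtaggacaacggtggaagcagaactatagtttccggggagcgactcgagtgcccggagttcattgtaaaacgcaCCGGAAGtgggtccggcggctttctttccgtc
MRPS23: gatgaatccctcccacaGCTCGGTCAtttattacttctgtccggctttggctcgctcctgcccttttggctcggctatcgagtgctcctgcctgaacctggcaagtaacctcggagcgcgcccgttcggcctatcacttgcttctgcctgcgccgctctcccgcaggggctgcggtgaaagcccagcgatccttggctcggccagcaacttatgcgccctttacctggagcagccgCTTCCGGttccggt

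The MRPS34 stretch held 3 copies of the ETS core and the other two stretches 1 each. Over the whole RefSeq windows, which run from 250 bases before to 50 after the start, 68 of the 76 genes could be matched by symbol. The ETS core, searched on both strands, was found in 28 of them (41.2%), against 18.5% of 10840 tested protein-coding genes and 10.7% of all 27305 windows. The YY1 core AAGATGGCG was found in 19.1% of members, against 3.8% of tested protein-coding genes and 1.85% of all windows. One or other of these cores was present in 54.4% of members and 21.4% of tested protein-coding genes. The nuclear respiratory factor 1 core GCGCANGCG was found in 19.1% of members against 14.4%, the antioxidant response element core in 11.8% against 15%, and the SP1 core GGGGCGGGG in 25% against 28%. In all windows these last cores stood at 8.05%, 13.6% and 16%. GGGGCGGGG and GCGCANGCG can overlap other GC-rich cores. A match describes the letters only and was not tested for binding. Of the 20 matched members that were lower with knockdown in both genotypes, 11 held the ETS core, against 28 of all 68. Of the 6 that were higher in both, 1 did, MRPL27. For the YY1 core these counts were 1 of 20 and 1 of 6, and for nuclear respiratory factor 1 they were 3 and 1. The antioxidant core gave 4 and 3, and the SP1 core 4 and 2. A link between any core and the direction of change was not tested.

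The genes lie on 21 chromosomes and are short, with a median coding length of 591 bases against 1404 in 13403 tested protein-coding genes (GENCODE v29, GRCh38). For 17 of the 76 (22.4%) another protein-coding gene started on the opposite strand within the 1000 bases before their own start, against 9.65% of tested protein-coding genes. Pairs whose starts cross, so that the genes overlap, were not counted. Among these neighbours were genes of respiratory complex I (NDUFS6 beside MRPL36 and NDUFB5 beside MRPL47), the chaperonin gene TCP1 beside MRPL18 and the DNA repair nuclease partner genes EME1 and EME2 beside MRPL27 and MRPS34. MRPL46 and MRPS11 faced each other, 34 bases apart. These neighbours were named after the values were seen.

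Levels were compared between genes as CPM per kilobase of the principal transcript, in the WT scramble libraries. MRPL18, a conserved protein of the large subunit's central protuberance, was highest at 119 ± 8.64 (SD, n = 4), followed by MRPL51 at 113 ± 6.35 and MRPL20 at 110 ± 11.3. These 3 did not differ beyond their spread. The order depends on the length used. Per kilobase of all exons of a gene joined, MRPS34 was highest (96.3), followed by MRPL51 (90) and MRPL18 (84.4). MRPL20 stood at 28.6 by that length, and MRPS18C (2.01) lay below MRPS17 (2.6). The values that follow use the principal transcript. Among the 61 genes with no exon shared on the same strand with another gene, the level ran from 5.94 (MRPS18C) to 119, with a median of 41.4 and quartiles of 23 and 59.5. The median was 47.7 over 41 MRPL genes and 37.9 over 20 MRPS genes of this kind. The other 15 had a median of 14.8 and included the 4 lowest genes. MRPS17 stood at 3.04 ± 0.365, MRPL46 at 2.87 ± 0.553, MRPL38 at 1.98 ± 0.515 and MRPS24 at 0.361 ± 0.207. MRPL46 and MRPS17 did not differ beyond their spread.

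**Figure D1:**
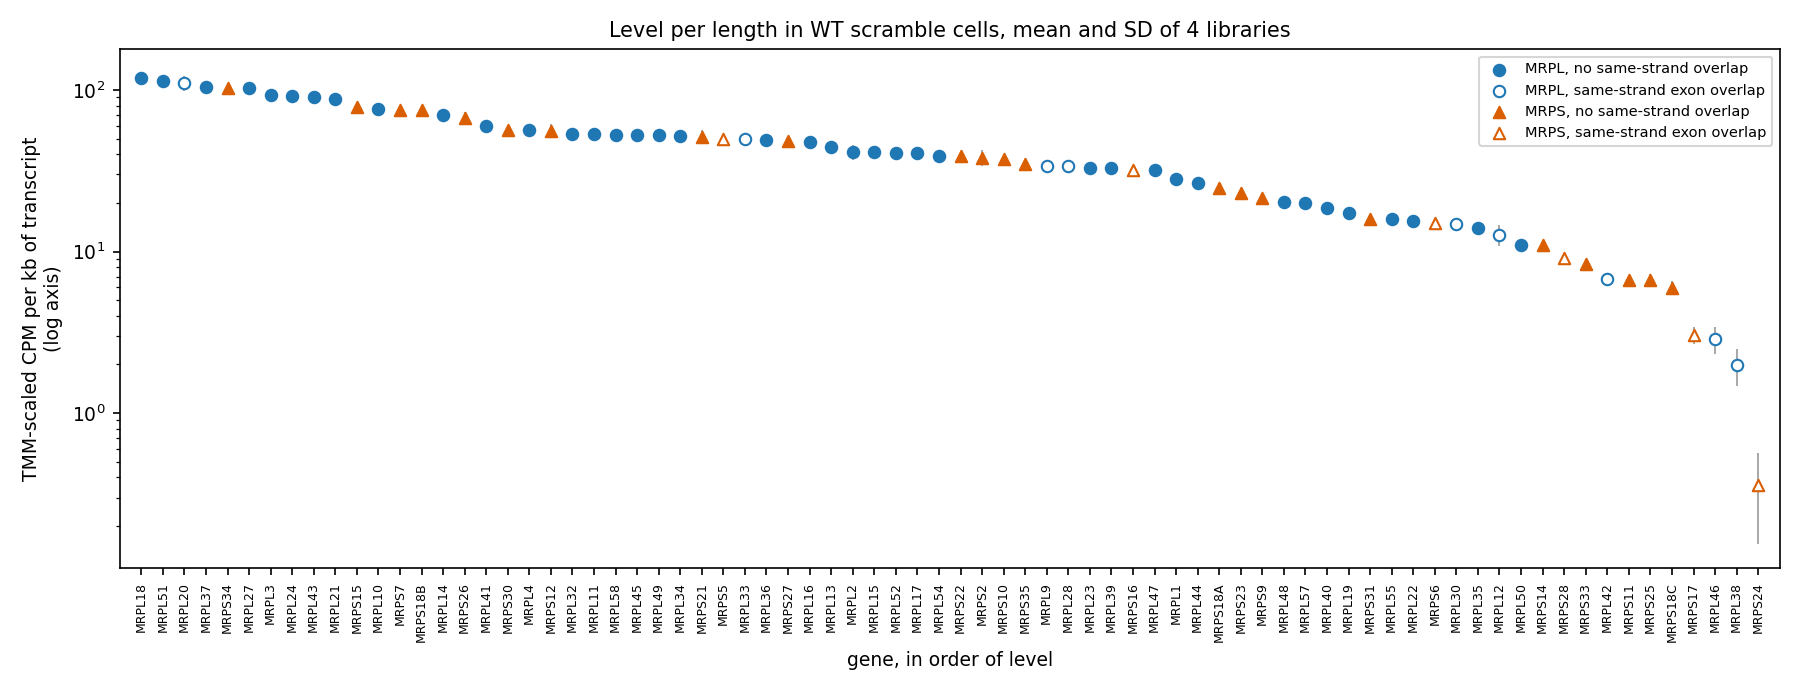
Level of each of the 76 genes in WT scramble cells, as TMM-scaled CPM per kilobase of the principal transcript on a log axis, in rank order, with the mean and SD of 4 libraries. Filled symbols are genes with no same-strand exon overlap and open symbols the 15 with one, and the 4 lowest points are all open.

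MRPS24, a conserved small subunit protein at the messenger RNA entry site, shares its exons with the readthrough gene URGCP-MRPS24 and had only 3 to 17 counts in any library, so its level and changes are uncertain. The same holds for every gene with a same-strand overlap, since the way the authors assigned such reads is not given in the sources used here. Of the genes named below with a change these are MRPL12, MRPL20, MRPL28, MRPL30, MRPL33, MRPL46, MRPS6 and MRPS28. A further source of uncertainty is an overlap on the opposite strand, present in 29 of the 76, because the strand setting of the counting is not given either. Among the genes named below with a change it covers MRPL4, MRPL11, MRPL20, MRPL23, MRPL32, MRPL49, MRPS7, MRPS11, MRPS22, MRPS25 and MRPS27.

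OTUD5 knockdown in WT cells moved more of the genes down than up. Of the 76, 28 fell and 8 rose at an adjusted p under 0.05 (edgeR quasi-likelihood test, Benjamini-Hochberg adjustment over all 17104 tested genes, the source of every adjusted p given here unless another tool is named). Among all tested genes 25.1% fell and 25.2% rose, so the share that fell (36.8%) lay above that background and the share that rose (10.5%) below it. The median log2 fold change was -0.13 over the 76 and 0.01 over all tested genes. Without WT knockdown replicates 2 and 3 the counts were 18 lower and 6 higher. The shares of all tested genes without these libraries are not given here. Whether the share that fell still lay above its background is therefore not known.

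MRPS34, a mitochondria-specific protein of the small subunit mutated in some cases of Leigh syndrome, fell most. Its level was 111, 101, 98.5 and 113 CPM in the WT scramble libraries, 56.7, 52.4, 45.1 and 65 for WT knockdown, 95.8, 98.2, 98 and 108 for truncation scramble and 46.1, 43.4, 45.3 and 41.9 for truncation knockdown. Every knockdown library lay below every scramble library, and the WT knockdown mean was 51.9% of the WT scramble mean. The log2 fold change was -0.94 ± 0.07 (SE, adjusted p = 2.3e-10) in WT cells and -1.14 ± 0.08 (adjusted p = 3.4e-12) in truncation cells.

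MRPL3, a conserved large subunit protein near the peptidyl transferase centre, followed. It stood at 154, 152, 165 and 167 CPM in WT scramble, 105, 108, 104 and 105 for WT knockdown, 144, 152, 141 and 145 for truncation scramble and 91.6, 87.6, 87.2 and 74.8 for truncation knockdown libraries. Knockdown and scramble libraries did not overlap in either genotype, with a log2 fold change of -0.59 ± 0.06 in WT cells (adjusted p = 4.5e-09) and -0.74 ± 0.06 in truncation cells (adjusted p = 4.9e-11).

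The next largest falls in WT cells were mostly of conserved large subunit genes, which make up 30 of the 76. MRPL20, needed early in assembly in bacteria, fell by 0.59 (SE 0.08) on the log2 scale, MRPL4, which lines the exit tunnel, by 0.58 (SE 0.07), and MRPL23, at the tunnel's mouth, by 0.54 (SE 0.09). The libraries of the 2 groups did not overlap for any of these 3. MRPL50, known only from mitochondria, fell by 0.49 (SE 0.08), the small subunit gene MRPS26 by 0.44 (SE 0.09), with overlapping libraries, and MRPL28 by 0.39 (SE 0.07).

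The rises in WT cells were smaller. The largest among called genes was that of MRPL27 (log2 fold change 0.28 ± 0.08), whose bacterial counterpart reaches into the peptidyl transferase centre, and its libraries overlapped between groups. MRPL49 (0.24 ± 0.06) and the stalk base gene MRPL10 (0.23 ± 0.06) also rose with overlapping libraries, while MRPL45 (0.23 ± 0.06), which ties the ribosome to the inner membrane, and the small subunit gene MRPS35 (0.21 ± 0.06) rose without overlap. MRPS27 (0.20 ± 0.05), MRPL39 (0.19 ± 0.06) and MRPL32 (0.17 ± 0.06) completed the 8. The MRPL32 call was lost in 7 alternatives (adjusted p up to 0.103), among them those without WT scramble replicate 1 or 2 or WT knockdown replicate 2 or 4. The MRPL39 call was also lost with no filter on low counts and without WT scramble replicate 2, and the calls of MRPS35, MRPL39 and MRPL32 were lost with WT knockdown replicates 2 and 3 both left out (adjusted p = 0.102 for MRPS35).

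In truncation cells the knockdown again lowered more of the genes than it raised, with 29 lower and 11 higher of 76. All tested genes had 28.1% lower and 28.7% higher, against 38.2% and 14.5% of the members, and the median was -0.10 against 0.02. With upper-quartile scaling the split was 23 lower and 17 higher, and the shares of all tested genes under that scaling are not given here. It moved the median of all tested genes by 0.05 on the log2 scale. The 2 knockdown comparisons share no library, so their calls can be set side by side. Of the 28 genes lower in WT cells, 23 (82.1%) were lower in truncation cells too, and these were 79.3% of the 29 there. Of the 8 higher, 7 (87.5%) were shared, which was 63.6% of the 11, and no gene was called in opposite directions. The share of repeated calls among all tested genes is not given here, so these shares have no background beside them. Pearson's r between the log2 fold changes was 0.93 over the 76 genes and 0.94 over the 61 with no same-strand overlap, against 0.77 over all tested genes, as a description across genes of unequal depth.

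**Figure D2:**
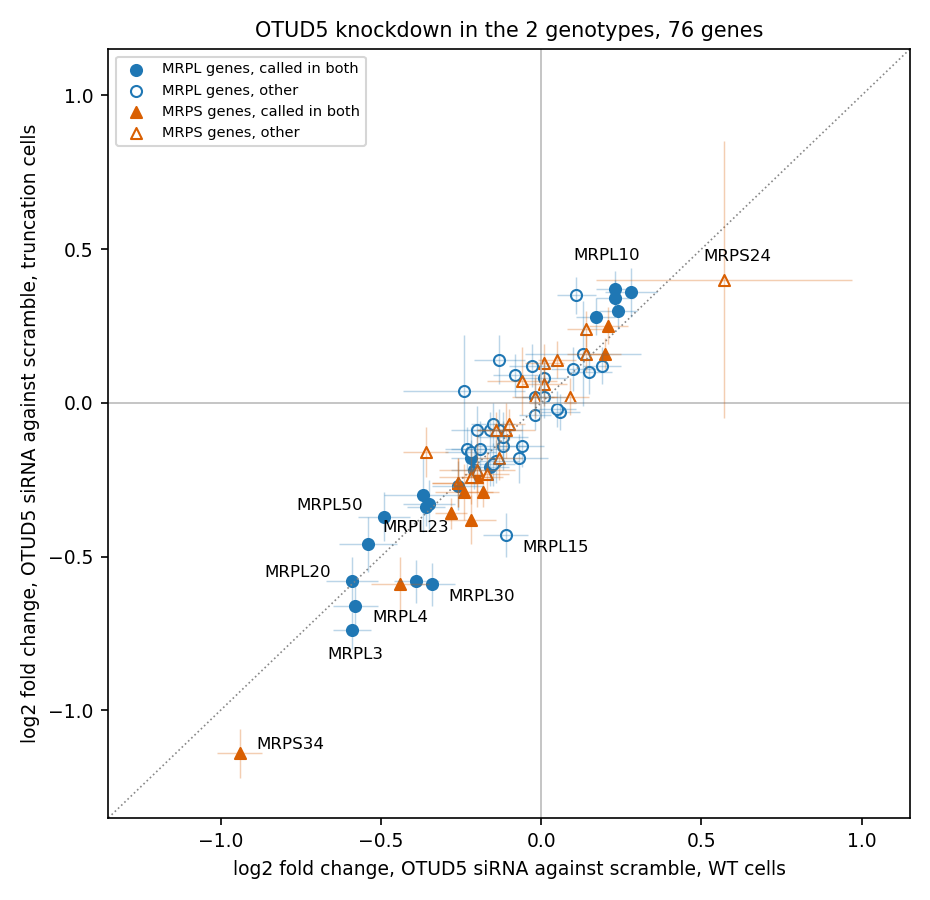
Log2 fold change with OTUD5 siRNA against scramble in WT cells (x axis) and in truncation cells (y axis) for the 76 genes, with bars of 1 SE, circles for MRPL and triangles for MRPS genes. Filled symbols were called in both, and the points lie along the dotted line of equal change, with MRPS34 lowest at -0.94 and -1.14.

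MRPL4 (-0.66 ± 0.07), MRPL30 (-0.59 ± 0.07), MRPS26 (-0.59 ± 0.09), MRPL20 (-0.58 ± 0.08), MRPL28 (-0.58 ± 0.07) and MRPL23 (-0.46 ± 0.09) came after MRPS34 and MRPL3 among those lower in truncation cells, and the groups did not overlap for any of these 6. MRPL10, whose protein carries the stalk, rose most among called genes. Its levels were 136, 131, 126 and 131 CPM in WT scramble, 157, 158, 133 and 165 for WT knockdown, 146, 141, 139 and 143 for truncation scramble and 194, 186, 166 and 172 for truncation knockdown libraries. The knockdown libraries were all above the scramble libraries in truncation cells, and 1 WT knockdown library, replicate 3, lay within the WT scramble range. The log2 fold change in truncation cells was 0.37 ± 0.06 (adjusted p = 5.8e-06). The other 2 proteins listed for the stalk, which recruits translation factors, went down with knockdown in truncation cells: MRPL12, the multi-copy stalk protein, by 0.30 and MRPL11 by 0.19. MRPL27 (0.36 ± 0.08), MRPL33 (0.35 ± 0.06), MRPL45 (0.34 ± 0.06), MRPL49 (0.30 ± 0.06), MRPL32 (0.28 ± 0.06), MRPS35 (0.25 ± 0.06) and MRPS10 (0.24 ± 0.06) were the next higher.

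The counts are given by role as well, to be read against the background in all tested genes, 25.1% lower and 25.2% higher in WT cells and 28.1% and 28.7% in truncation cells. Of the 30 conserved large subunit genes, 13 fell (43.3%) and 3 rose with knockdown in WT cells, and 14 fell (46.7%) and 4 rose in truncation cells. Of the 20 mitochondria-specific large subunit genes, 5 fell (25%) and 3 rose, then 4 fell (20%) and 2 rose, at or below the background. The 16 conserved small subunit genes had 5 lower and 0 higher in WT cells and 7 lower and 3 higher in truncation cells. The 10 mitochondria-specific small subunit genes had 5 lower and 2 higher, then 4 lower and 2 higher. Of 6 genes of the central protuberance, which contacts the small subunit, 2 and then 1 fell. Of 7 genes listed for the exit tunnel 1 and then 2 fell and 1 rose each time. That list leaves out MRPL4, which also lines the tunnel and fell in both genotypes. Differences between these roles were not tested.

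**Figure D3:**
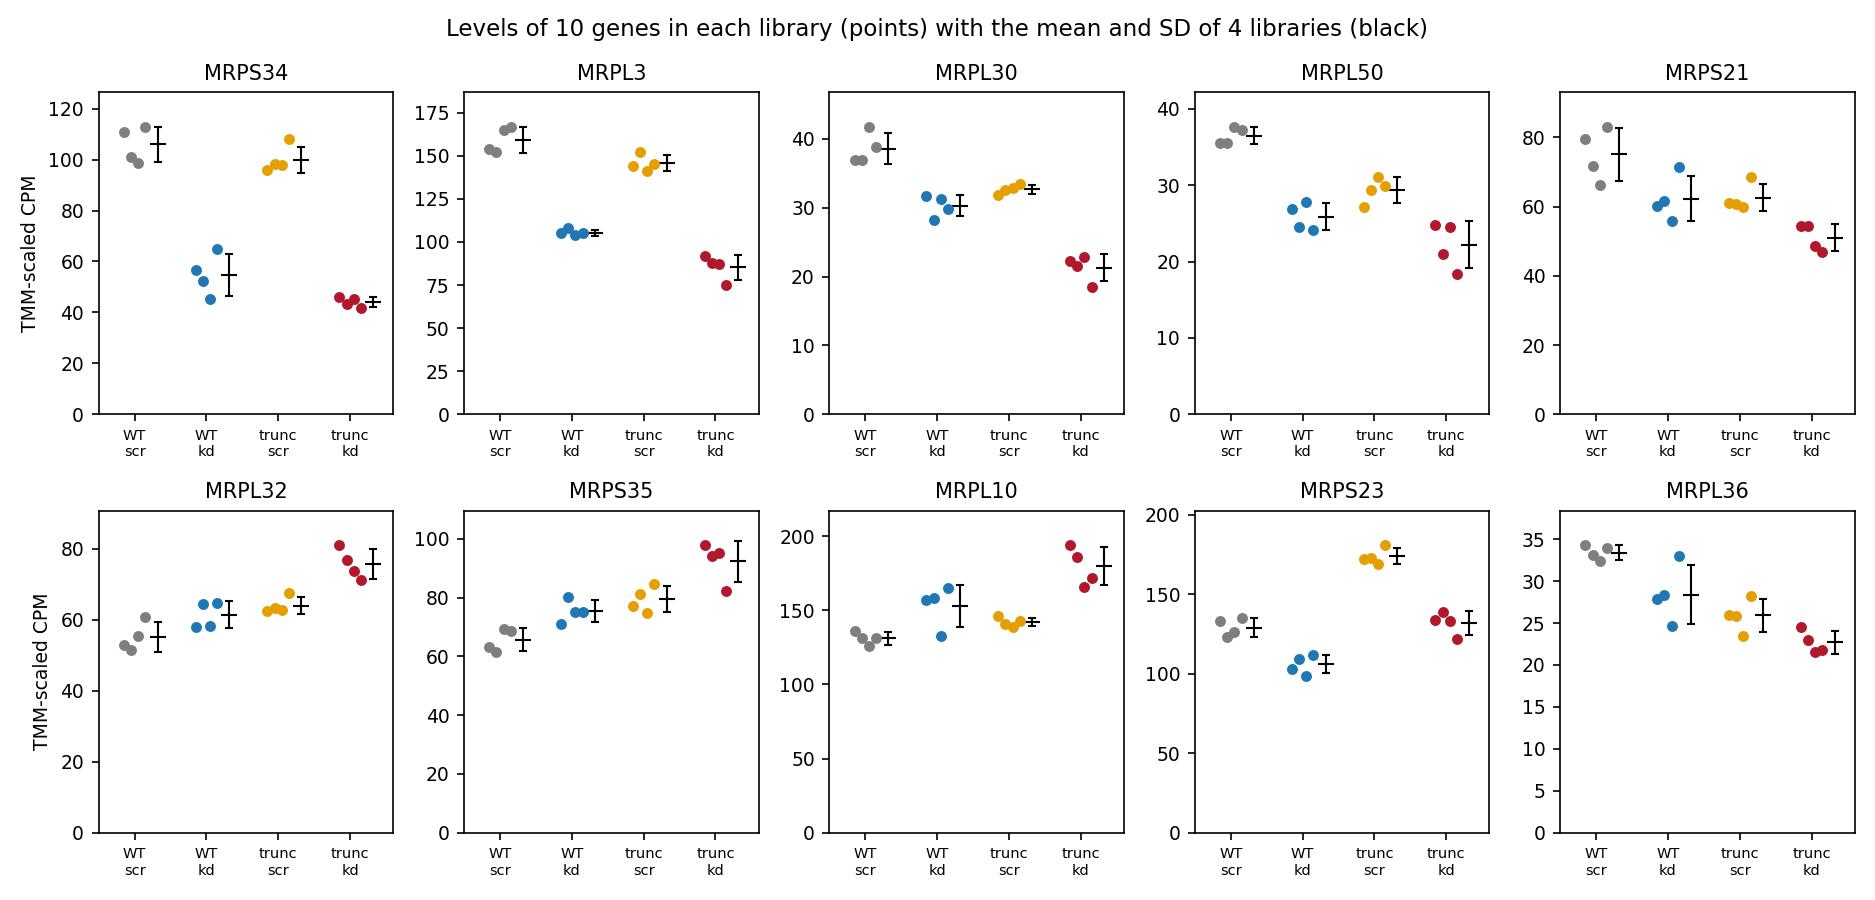
TMM-scaled CPM of 10 genes in every library, by group (scr, scramble siRNA; kd, OTUD5 siRNA; trunc, Rpn10 truncation), with points for libraries and black bars for the mean and SD of 4. The MRPS34 and MRPL3 points fall with knockdown in both genotypes, the MRPL32 points of truncation knockdown lie above all others, the MRPS35 points of that group overlap those of truncation scramble, and the MRPS23 points are highest in truncation scramble (169 to 181 CPM).

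Truncation of Rpn10 in scramble-transfected cells gave smaller and more balanced changes. Of the 76 genes 12 rose and 10 fell, and the median log2 fold change was -0.01 against -0.02 over all tested genes. The shares called, 15.8% and 13.2%, lay below those of all tested genes, 21.6% higher and 22.4% lower. With upper-quartile scaling 8 rose and 14 fell, with no matching shares of all tested genes given here. The log2 fold changes ran from -0.38 to 0.43.

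MRPS28, a conserved small subunit protein, stood at 7.6, 8.37, 7.22 and 7.79 CPM in WT scramble and 10, 10.9, 10.4 and 10.8 in truncation scramble libraries. These did not overlap, and the rise was the largest of the 76 (0.43 ± 0.10, adjusted p = 0.000665). MRPS23, a small subunit protein specific to mitochondria, stood at 133, 123, 126 and 135 CPM in WT scramble, 103, 109, 98.9 and 112 for WT knockdown, 172, 173, 169 and 181 for truncation scramble and 134, 139, 133 and 122 for truncation knockdown libraries. The truncation scramble libraries were the highest 4 of the 16 and the WT knockdown libraries the lowest 4, and the rise with truncation in scramble cells was 0.41 ± 0.05 (adjusted p = 5.8e-07). MRPL54 (0.31 ± 0.09), MRPS11 (0.31 ± 0.07), MRPS35 (0.26 ± 0.06), the small subunit head protein MRPS7 (0.26) and the exit tunnel gene MRPL22 (0.25) rose as well. MRPL52 rose by 0.23, a call lost with upper-quartile scaling and when WT scramble replicates 2 or 3, or the same replicates of truncation scramble, were left out singly (adjusted p up to 0.093).

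MRPL36, a small zinc-binding protein of the conserved large subunit set, fell most with truncation. Its levels were 34.3, 33.1, 32.4 and 34 CPM in WT scramble, 27.9, 28.3, 24.6 and 33 for WT knockdown, 26, 25.8, 23.5 and 28.2 for truncation scramble and 24.5, 23, 21.5 and 21.8 for truncation knockdown libraries. All WT scramble libraries lay above all truncation libraries (log2 fold change -0.38 ± 0.07, adjusted p = 0.000136). MRPL50 (-0.33 ± 0.08), MRPS25 (-0.30), MRPS18B (-0.30 ± 0.06), MRPS21 (-0.28 ± 0.08), MRPS30 (-0.27), MRPL30 (-0.25 ± 0.07) and MRPS6 (-0.24 ± 0.09) were the next lower. The MRPS6 call was lost in 5 alternatives, among them those without WT scramble replicate 4 or truncation scramble replicate 1, 2 or 3 (adjusted p up to 0.114).

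Under OTUD5 knockdown the truncation raised 19 of the 76 and lowered 14, with a median of 0.02 against 0.00 over all tested genes. The background was 21.9% higher and 23.6% lower, near the members' 25% and 18.4%. This comparison shares no library with the one in scramble cells. Of the 12 genes higher there, 10 (83.3%) were higher here, 52.6% of the 19, and of the 10 lower, 9 (90%) were lower here, 64.3% of the 14. These shares too have no background of repeated calls among all tested genes beside them. No gene was called in opposite directions, and Pearson's r was 0.86 over the 76 genes against 0.76 over all tested genes, again as a description.

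**Figure D4:**
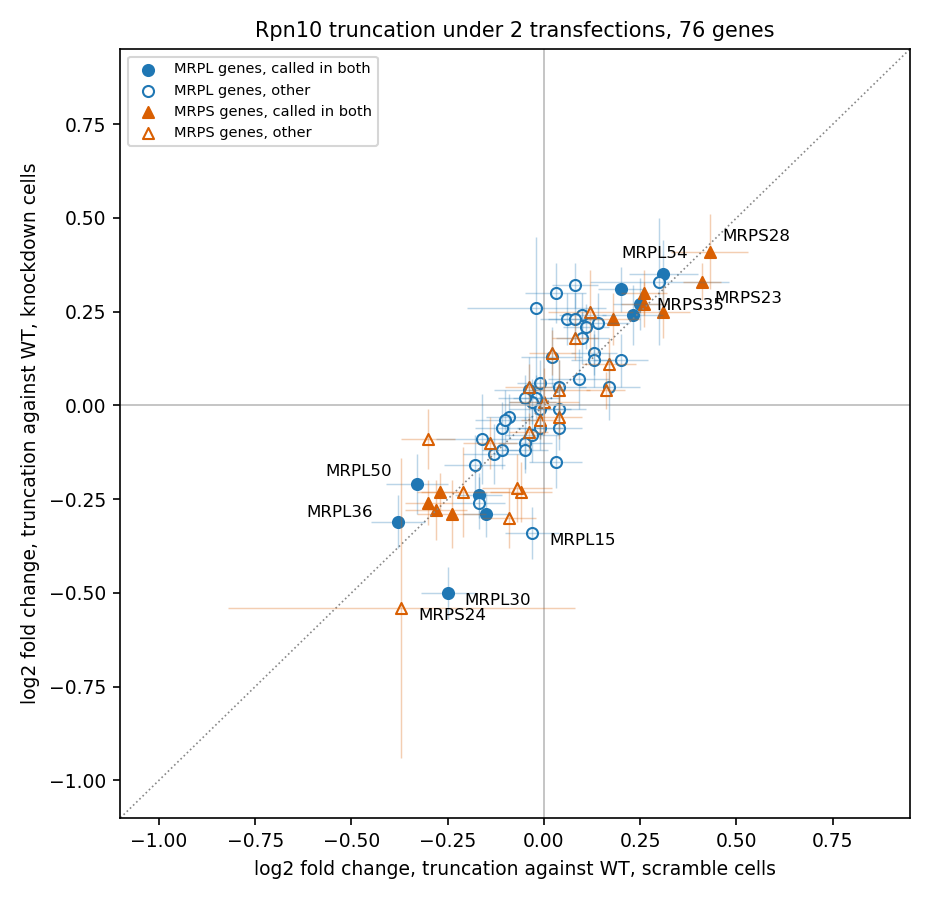
Log2 fold change with truncation against WT in scramble cells (x axis) and in knockdown cells (y axis) for the 76 genes, with bars of 1 SE, circles for MRPL and triangles for MRPS genes, filled where called in both. MRPS28 and MRPS23 lie at the upper right, MRPL36 and MRPL50 at the lower left, and MRPS24, with 3 to 17 counts a library, has the longest bars.

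MRPL30 had the largest fall among called genes in this setting (-0.50 ± 0.07), followed by MRPL15 (-0.34 ± 0.07), MRPL36 (-0.31 ± 0.07), MRPS34 (-0.30 ± 0.08), MRPL3 (-0.29 ± 0.06), MRPS6 (-0.29 ± 0.09), MRPS21 (-0.28 ± 0.08) and MRPL4 (-0.26 ± 0.07). The largest rises were those of MRPS28 (0.41 ± 0.10), MRPL54 (0.35 ± 0.09), MRPS23 (0.33 ± 0.05), MRPL33 (0.32), MRPL32 (0.31 ± 0.06), MRPS35 (0.30 ± 0.06), MRPL55 (0.30) and MRPS7 (0.27). Without WT knockdown replicates 2 and 3 the counts were 14 higher and 17 lower, and the MRPL55 call was lost (adjusted p = 0.0582). Matching shares of all tested genes are not given here.

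A few genes were called in all 4 of these comparisons, which share groups in pairs, so their values are given side by side and not as independent support. MRPL32, whose precursor is processed by the inner membrane m-AAA protease before it joins the ribosome, was higher each time. With MRPS35, these are 2.63% of the members, against 6.32% of all tested genes that were higher in all 4. The levels of MRPL32 were 52.9, 51.5, 55.4 and 60.8 CPM in WT scramble, 58.1, 64.6, 58.4 and 64.9 for WT knockdown, 62.5, 63.3, 62.7 and 67.6 for truncation scramble and 81.1, 77, 73.8 and 71.3 for truncation knockdown libraries. The truncation knockdown libraries were above all others, and WT scramble overlapped WT knockdown. MRPS35 was also higher each time, at 63.3, 61.6, 69.4 and 68.6 CPM in WT scramble, 71.2, 80.3, 75 and 75.1 for WT knockdown, 77.2, 81.2, 74.8 and 84.7 for truncation scramble and 97.9, 94.1, 95.3 and 82.3 for truncation knockdown. The truncation knockdown mean was 140% of the WT scramble mean, and those 2 groups did not overlap.

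MRPL3, MRPL30, MRPL50, MRPS21 and MRPS6 were lower in all 4, which is 6.58% of the members against 6.5% of all tested genes, a share at the background. MRPL30, a conserved large subunit protein, stood at 36.9, 36.9, 41.8 and 38.8 CPM in WT scramble, 31.7, 28.2, 31.2 and 29.8 for WT knockdown, 31.9, 32.6, 32.8 and 33.4 for truncation scramble and 22.2, 21.5, 22.8 and 18.5 for truncation knockdown libraries. The groups on either side of each of the 4 comparisons did not overlap. MRPL50 stood at 35.5, 35.6, 37.7 and 37.3 CPM in WT scramble, 26.9, 24.5, 27.8 and 24.2 for WT knockdown, 27.1, 29.4, 31.1 and 29.9 for truncation scramble and 24.8, 21, 24.5 and 18.4 for truncation knockdown. The WT scramble libraries were above all 12 others. MRPS21 means were 75.1 ± 7.6, 62.3 ± 6.62, 62.5 ± 3.93 and 51 ± 3.85 CPM in the same order (SD, n = 4 each), and MRPS6 ranged over 14.6 to 15.7, 11.8 to 13.8, 11.7 to 14.7 and 8.75 to 11.5 CPM. Both belong to the conserved small subunit set, and their WT scramble and truncation scramble libraries overlapped. The knockdown calls of both in WT cells were lost with WT knockdown replicates 2 and 3 left out, and that of MRPS6 also without WT scramble replicate 4 or WT knockdown replicate 1. The MRPL3 call for truncation in scramble cells (-0.15 ± 0.06, adjusted p = 0.0367) was lost in 13 alternatives with adjusted p up to 0.185, among them DESeq2 size factors, and those without WT scramble replicate 3 or 4, WT knockdown replicate 1 or 3, any 1 truncation scramble library, or truncation knockdown replicate 2 or 3. The MRPL50 call for truncation in knockdown cells (-0.21 ± 0.08) was lost in 6, among them those without WT knockdown replicate 1 or 3 or truncation knockdown replicate 2 or 4 (adjusted p up to 0.147).

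MRPS23, MRPS28, MRPS11 and MRPS22 were higher with truncation and lower with knockdown, and MRPL39 was lower with truncation and higher with knockdown, counting a gene called at least once for each. These 5 are 6.58% of the members, and 13.5% of all tested genes were called in opposite directions in this way. MRPS23 was the only one of these 5 called in all 4 comparisons, with log2 fold changes of 0.41 and 0.33 for truncation and -0.28 and -0.36 for knockdown. MRPS22, a mitochondria-specific small subunit protein, had 0.16 ± 0.05 for truncation in scramble cells and -0.18 ± 0.05 and -0.29 ± 0.05 for knockdown. MRPS11, on the platform of the small subunit, had 0.31 ± 0.07 and 0.25 ± 0.07 for truncation and -0.18 ± 0.07 for knockdown in truncation cells, where the call was lost with upper-quartile scaling and without truncation scramble replicate 1 or 4 or truncation knockdown replicate 3 (adjusted p up to 0.123). Its truncation call in knockdown cells was lost with WT knockdown replicates 2 and 3 left out. MRPS28 had -0.24 ± 0.09 there, lost with upper-quartile scaling and without truncation knockdown replicate 2 or 3. MRPL39 had -0.17 ± 0.06 and -0.24 ± 0.06 for truncation and 0.19 ± 0.06 for knockdown in WT cells. Its truncation call in scramble cells was lost in 5 alternatives (adjusted p up to 0.146), among them those without WT scramble replicate 4 or truncation scramble replicate 1, 2 or 3. The MRPS22 truncation call was lost in 5 (adjusted p up to 0.102), among them those when WT scramble replicates 2 or 3, or replicate 2 of truncation scramble, were left out singly.

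Called in none of the 4 single comparisons were 19 genes (25%, against 20.5% of all tested genes), among them MRPL37 at 155 CPM in WT scramble, MRPL1, MRPL13, MRPL14, MRPL17, MRPL19, MRPS12, MRPS15 and the lowly counted MRPL38, MRPL46, MRPS17 and MRPS24. They were named after their values were seen. A call that was missed does not show that a gene did not change.

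With truncation and knockdown together, against WT scramble, 32 of the 76 fell and 15 rose. Among all tested genes 33.5% fell and 33.2% rose, against 42.1% and 19.7% of the members, with medians of 0.00 and -0.06. MRPS34 fell to 41.8% of its WT scramble mean (log2 fold change -1.24 ± 0.08, adjusted p = 2.9e-13) and MRPL3 to 53.5% (-0.88 ± 0.06). MRPL30 (-0.84 ± 0.07), MRPL4 (-0.83 ± 0.07), MRPL50 (-0.70 ± 0.08), MRPS26 (-0.66 ± 0.09), MRPL20 (-0.59 ± 0.08) and MRPL28 (-0.54 ± 0.07) were the next lower. The largest rises were those of MRPS35 (0.51 ± 0.06), MRPL27 (0.50 ± 0.08), MRPL10 (0.48 ± 0.06), MRPL32 (0.48 ± 0.06), MRPL46 (0.46 ± 0.18), MRPL45 (0.45 ± 0.06), MRPL33 (0.43 ± 0.06) and MRPS7 (0.41 ± 0.06). The MRPL46 call, at 63 to 151 counts a library in these 2 groups, was lost with DESeq2 and without WT scramble replicate 3 or truncation knockdown replicate 4 (adjusted p up to 0.128).

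Whether the knockdown response differed between genotypes was tested as an interaction. None of the 76 genes was called by edgeR, against 5.69% of all tested genes in either direction, and 4 had an unadjusted p under 0.05 (MRPL15, MRPL33, MRPL30 and MRPL55). In simulated data 63% of interactions of 0.5 in size on the log2 scale were recovered. Those of the 76 genes ran from -0.31 to 0.28, so differences of this size can be missed. MRPL15, a conserved large subunit protein, had the largest difference (-0.31 ± 0.10, adjusted p = 0.0582). Its levels were 49, 44.2, 45.6 and 50.6 CPM in WT scramble, 40.8, 48.5, 40.4 and 44.1 for WT knockdown, 43.9, 45.1, 47.1 and 51.5 for truncation scramble and 36.5, 35.1, 33.2 and 31.7 for truncation knockdown libraries. Only the truncation knockdown libraries stood apart, all below the other 12. DESeq2 called MRPL15 (adjusted p = 0.0163) and MRPL30 (adjusted p = 0.0458), and limma on the deposited values called MRPL15 (adjusted p = 0.0428). By edgeR MRPS34 (-0.37) and MRPL28 (-0.36) were called when WT knockdown replicates 2 and 3 were left out, with adjusted p of 0.0124 and 0.0119.

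Large and small subunit genes were compared by the sum of their scaled values. The 76 genes together gave 4596 ± 203 CPM in WT scramble, 4254 ± 280 for WT knockdown, 4667 ± 125 for truncation scramble and 4309 ± 271 for truncation knockdown libraries (mean ± SD, n = 4 each), and took 0.412 to 0.472% of the counts of a library. The MRPL sum over the MRPS sum was 1.78, 1.78, 1.78 and 1.80 in WT scramble, 1.79, 1.83, 1.79 and 1.80 for WT knockdown, 1.76, 1.77, 1.77 and 1.76 for truncation scramble and 1.85, 1.82, 1.80 and 1.80 for truncation knockdown libraries. The truncation scramble ratios were the lowest of the 16 and did not overlap those of truncation knockdown, a log2 difference of 0.044, while WT scramble and WT knockdown ratios overlapped (0.012). Taken from mean log2 values per subunit the differences were 0.023 and -0.004, and without the highest gene of each subunit the WT difference was 0.026, so neither the size nor, in WT cells, the direction held. With the subunits assigned by structure the group means were 2.01, 2.02, 1.96 and 2.02 in the same order. The counts of knockdown calls for the symbols gave no clear split. In WT cells knockdown lowered 18 of 48 MRPL (37.5%) and 10 of 28 MRPS genes (35.7%), against 25.1% of all tested genes. In truncation cells it lowered 17 (35.4%) and 12 (42.9%), against 28.1%. Truncation in scramble cells raised 5 of 48 MRPL (10.4%) and 7 of 28 MRPS genes (25%), against 21.6% of all tested genes. It lowered 5 MRPL (10.4%) and 5 MRPS genes (17.9%), against 22.4%. The differences between the symbols were not tested.

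**Figure D5:**
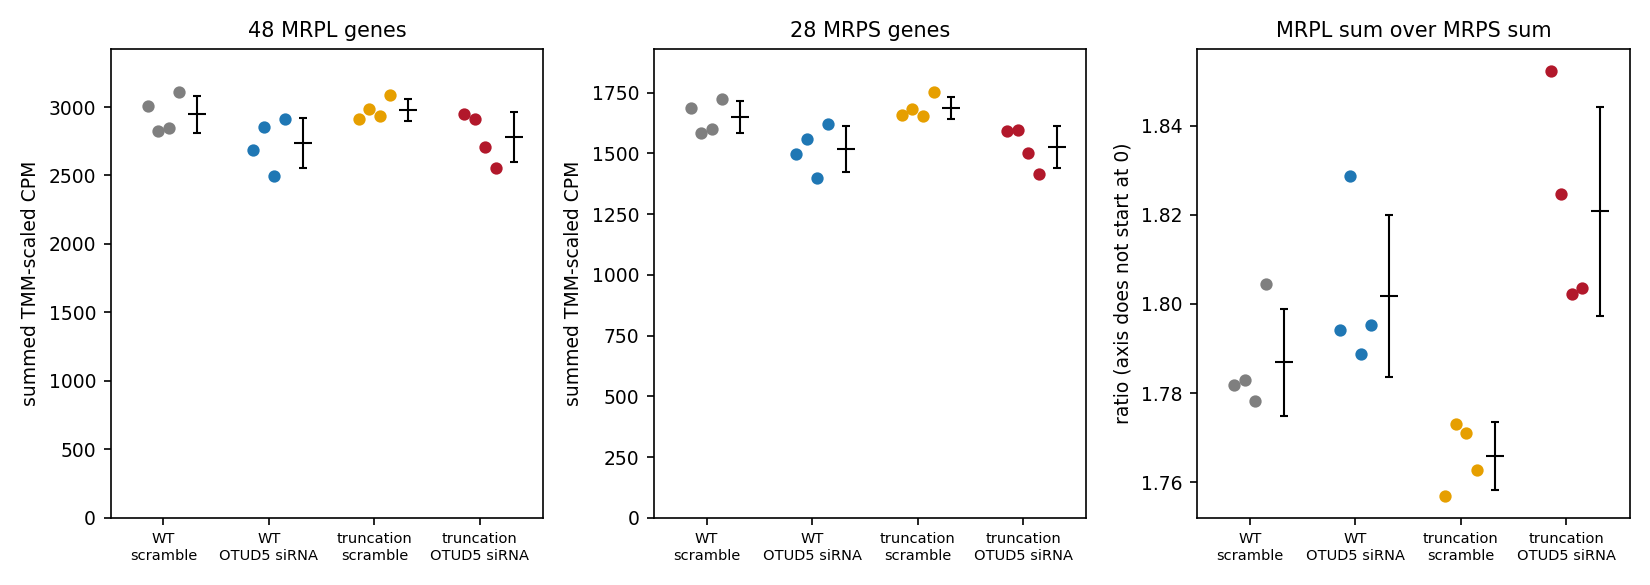
Summed TMM-scaled CPM of the 48 MRPL genes and the 28 MRPS genes in each library and the ratio of the sums, by group, with points for libraries and black bars for the mean and SD of 4. The ratio axis does not start at 0; the ratios span 1.76 to 1.85 and are lowest in truncation scramble.

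Other genes of mitochondrial translation were read from lists chosen with earlier results known. Their counts stand against the same backgrounds: with knockdown 25.1% of all tested genes fell and 25.2% rose in WT cells and 28.1% and 28.7% in truncation cells, and with truncation in scramble cells 22.4% fell and 21.6% rose. The 5 mitoribosome proteins without an MRP symbol included the largest change with truncation among all the listed mitochondrial ribosome proteins. DAP3, the GTP-binding protein of the small subunit, rose from 132, 127, 134 and 142 CPM in WT scramble to 228, 234, 230 and 243 in truncation scramble libraries (0.79 ± 0.05, adjusted p = 1.0e-11), and its level in truncation knockdown was 341, 337, 309 and 296 CPM. The groups did not overlap, and knockdown also raised it (0.27 ± 0.05 in WT and 0.49 ± 0.05 in truncation cells). CHCHD1 fell with knockdown (-0.51 ± 0.07 and -0.55 ± 0.07), as did AURKAIP1 (-0.36 ± 0.07 and -0.38 ± 0.07), both small subunit proteins.

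Of 26 tested ribosome assembly genes, 10 fell (38.5%) and 4 rose with knockdown in WT cells and 9 fell (34.6%) and 5 rose in truncation cells. The largest falls were those of MRM1, which methylates the large subunit rRNA (-1.70 ± 0.10 and -2.18 ± 0.11), and NDUFAB1, the mitochondrial acyl carrier protein that also takes part in assembly (-1.54 ± 0.06 and -1.74 ± 0.06). MRM1 went from 19.4 to 25.2 CPM in WT scramble to 5.42 to 7.28 in WT knockdown libraries, and NDUFAB1 from 89.5 to 93.3 to 27.9 to 33.9. RCC1L rose with truncation (0.67 ± 0.06). Of 16 translation factors, 3 fell (18.8%) and 2 rose with knockdown in WT cells, both below the background, and 6 fell and 3 rose in truncation cells, with the elongation factor gene TUFM at -0.42 ± 0.05 and -0.51 ± 0.05 and SLIRP, which stabilises mitochondrial messages, at -0.42 ± 0.07 and -0.30 ± 0.07. With truncation in scramble cells 3 translation factors rose and 6 fell. GFM1 rose by 0.41, and TSFM was called at 1.09 ± 0.40 on 2 to 13 counts a library, too few for a firm size.

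Of 20 genes that charge mitochondrial tRNAs, 8 fell (40%) and 5 rose with knockdown in WT cells and 10 fell (50%) and 5 rose in truncation cells. YARS2 (-1.27 ± 0.10) and TARS2 (-0.83 ± 0.10) fell most in truncation cells, and in WT cells AARS2 (-0.66 ± 0.07) and TARS2 (-0.58 ± 0.09) came after YARS2. The largest change in truncation cells was a rise, that of VARS2 (1.61), on only 7 to 37 counts a library. PARS2 means went with knockdown from 11.6 to 16.6 CPM in WT cells and from 11.8 to 17.1 in truncation cells. Of 9 genes for copying and transcribing mitochondrial DNA, 4 fell (44.4%) and 0 rose with knockdown in WT cells, among them POLG (-0.46 ± 0.06), the RNA polymerase gene POLRMT (-0.43 ± 0.07) and TFAM (-0.34 ± 0.06). In truncation cells knockdown lowered 4 of the 9 (44.4%) and raised 2 (22.2%). With truncation in scramble cells 6 of the 9 fell and 0 rose. Of 8 tested nuclear regulators of mitochondrial genes, 3 fell (37.5%) and 3 rose with knockdown in WT cells. In truncation cells 3 fell and 4 rose (50%) with knockdown, and truncation in scramble cells lowered 5 (62.5%) and raised 0. PPARGC1B fell in each comparison (-0.70 ± 0.08 with truncation in scramble cells and -0.61 ± 0.08 with knockdown in WT cells), as did ESRRA (-0.36 ± 0.07 and -0.63 ± 0.07). GABPA, an ETS family factor, rose with knockdown (0.61 ± 0.07 in WT and 0.52 ± 0.07 in truncation cells).

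The 13 messages made from mitochondrial DNA, which these ribosomes translate, had 8 lower and 0 higher with truncation in scramble cells (median -0.45), 5 lower and 0 higher with knockdown in WT cells (median -0.32), 2 higher and 0 lower with knockdown in truncation cells (median 0.11), and 0 higher and 0 lower with truncation in knockdown cells (median -0.05; 0 of 13 also at an unadjusted p under 0.05 in edgeR). Their sum varied widely within groups, from 30643 to 46316 CPM in WT scramble libraries alone. The 2 mitochondrial rRNAs were called in no comparison. Cytosolic ribosomal protein genes gave other counts: of 84 tested, 74 fell and 1 rose with truncation in scramble cells (median -0.26), where 10 of the 76 mitochondrial ribosomal protein genes fell and 12 rose. With knockdown in WT cells 9 fell and 13 rose (median -0.01). The difference between the 2 gene families was not tested.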

How the data were processed

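RNA sequencing of 16 HCT116 libraries (4 groups of 4) was analysed from 3 deposited tables. Per the submitters' processing notes, STAR 2.7.3a, DESeq2, edgeR, limma and hg38 were used; the notes assign them no step. The counter, annotation and strand setting of the count step were not given in the sources used here. From their reads, the authors deposited whole-number counts per gene (60668 genes, 43699 with a count), a filtered table of 22916 of these genes, and, as signal, the filtered counts turned into CPM scaled by TMM. Recomputing that signal from the counts gave the deposited values to a relative 5e-15, and the deposited values give every level in the text. Reads that fall in several genes may have been dropped or split, so overlapping genes are marked as uncertain.

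Counts of all genes were tested with edgeR 4.0.16 (R 4.3.3; TMM, filterByExpr, quasi-likelihood F test, 1 coefficient per group, all 16 libraries, 12 residual degrees of freedom), with Benjamini-Hochberg adjustment over 17104 genes and a call at an adjusted p under 0.05. The SE of a log2 fold change is its size divided by the square root of F. The common biological coefficient of variation was 7.25%, and library totals of 28777244 to 29645663 counts set the counting error. The script was tested on simulated data with 200 changed genes per comparison. Of log2 changes of 0.5 in size, 78 to 83% were recovered in comparisons of 2 groups and 63% in the interaction. False calls were 1.1 to 7.37% of calls, with 6.45% for knockdown in WT cells and 7.37% in truncation cells. Alternatives were other scalings (DESeq2 size factors, upper quartile), no filter, a replicate block, only the groups compared, each library left out, WT knockdown replicates 2 and 3 both left out, DESeq2 1.42.0 and limma 3.58.1 on log2 of the deposited values with a pseudocount of 0.5. The subunit ratio is a description with no test.

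The members, gene lists and motifs were chosen with earlier results of these data known. Named are, per comparison, up to 8 called members with the largest and up to 8 with the most negative log2 fold change, the 3 highest and 3 lowest per length, and members called alike or in opposite directions across comparisons. Other genes are named where their count is small or their role is described, and those were chosen after their values were seen. Comparisons with a common group share libraries.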

Additional observations from a re-analysis of the deposited data

Results flagged for a closer look

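Within groups of 4 libraries, 3 of 92 sets of values had a library whose gap to the next exceeded the 95% critical value of Dixon's test, and chance gives about 1 in 20. MRPS21 stood at 68.4 CPM in truncation scramble replicate 4, against 60 to 61.1 in the other libraries of that group. MRPS6 stood at 15.7 CPM in WT scramble replicate 4, against 14.6 to 14.8. The MRPL to MRPS ratio was 1.83 in WT knockdown replicate 2, against 1.79 to 1.8.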

How the results depend on the processing

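Of the values of 126 named changes under the alternatives, 2919 kept their direction and their side of the threshold, 105 lost the call and 0 reversed. Knockdown in WT cells lowered 18 of the genes with WT knockdown replicates 2 and 3 left out. Knockdown in truncation cells raised 17 with upper-quartile scaling. The cause was not tested, and no shares of all tested genes are given for the alternatives in this section. The interaction called 1 gene with DESeq2 size factors in edgeR, with no filter (MRPL15 each time) and with limma, 2 with DESeq2 and 2 with both WT knockdown replicates left out. Leaving out 1 library gave 0 to 1: MRPL15 without truncation scramble replicate 1, truncation knockdown replicate 1, WT scramble replicate 4 or WT knockdown replicate 1 or 3, and MRPL33 without WT knockdown replicate 2.

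With each library left out in turn, truncation in scramble cells gave 8 to 14 higher and 7 to 12 lower, knockdown in WT cells 6 to 10 and 22 to 35, knockdown in truncation cells 8 to 14 and 26 to 34, truncation in knockdown cells 14 to 21 and 12 to 17, and both together 13 to 16 and 30 to 34. The log2 ratio differences ranged, in that order, from -0.019 to -0.012, 0.005 to 0.017, 0.035 to 0.049, 0.006 to 0.022 and 0.018 to 0.032.

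Subunits by structure gave -0.036 for truncation in scramble cells, -0.005 for truncation in knockdown cells and 0.006 for both together. Mean log2 values gave -0.004 for knockdown in WT and 0.023 in truncation cells. Leaving out the highest gene of each subunit gave 0.026 for knockdown in WT cells and -0.005 for truncation in knockdown cells.

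Replicate numbers did not pair the libraries: same-numbered libraries had correlated deviations of -0.0837 to 0.164, and they did not always correlate best with their own number. With the replicate block the counts were 13 higher and 12 lower, 10 and 29, 11 and 30, 19 and 14, 17 and 33, in the order above, and 0 for the interaction. Genes with few counts, MRPS24 above all, are limited by depth.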
